A study of Rattus norvegicus with 31 samples.

Results

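The comparison described here is the liver of rats fed a moderate-fat diet (M-group, 4 livers) against the liver of rats fed a low-fat diet (L-group, 5 livers), with 20% of dietary energy as fat against 15%. These 9 arrays were taken by their titles from the 31 arrays of the series, and all 31042 probe sets that are not array controls were compared. The rats were male Wistar rats, an outbred strain, aged 3 weeks at the start, and every group was first given chow for a week and then its own diet. The M diet supplied 60% of energy as carbohydrate and 20% as fat, the L diet 65% as carbohydrate and 15% as fat, and the H diet of a further group (4 livers, which enter only the estimate of the spread and a few values given for orientation) 35% as carbohydrate and 45% as fat. The added fat was soybean oil in place of corn starch, and the lard in the diets was the same. For 9 weeks the L-group ate ad libitum and the M- and H-groups were given the same energy as the L-group. Food was withdrawn 17 h before dissection in all groups, so every liver described here is a fasted liver. Rats are named by group and number (M6, M8, M9 and M10; L1 to L5); each number is 1 animal, so the spread is that between rats. One rat each of the M- and H-groups had been left out by the study for low food intake.

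The liver takes up dietary carbohydrate and fat and decides between storing and burning them. Carbohydrate acts through insulin, SREBP-1c and ChREBP (the product of *Mlxipl*) on the genes of fatty acid synthesis, while fatty acids bind the nuclear receptor PPARα, whose targets oxidize fat in mitochondria, peroxisomes and microsomes and which is active in the fasted liver. Bile acid synthesis from cholesterol, drug-metabolizing P450 enzymes and the enzymes of amino acid breakdown are further pathways of hepatocytes that follow the diet.

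The values are log2 signals from 3' expression arrays, on which a difference of 1 is a 2-fold ratio. Array medians lay between 4.67 and 4.70, and the 9 arrays correlated pairwise with r between 0.99126 and 0.99651 across probe sets. The diets did not set the arrays apart: the mean r was 0.99335 between M livers, 0.99407 between an M and an L liver and 0.99435 between L livers. Average linkage on 1 - r was cut to give 2 branches, which such a cut always does. It placed M9, M10 and L5 on 1 branch and M6, M8 and L1 to L4 on the other. The mean r with the other M and L livers was 0.99234 for M9, 0.99395 for M10 and 0.994 for L5. For the rest it lay between 0.99395 and 0.9945. The calls and lists described below are therefore also given without M9, M10 and L5 where they changed there. This setting was added after the data were seen and rests on these same values. It leaves only M6 and M8 against L1 to L4. Hepatocyte markers (*Alb*, *Apoa1*, *Ttr* and others, 7 genes) had mean levels of 13.44 to 13.47 in the M-group and 13.44 to 13.46 in the L-group. These levels are close to the highest value on the arrays, 14.30, where little room is left for a difference. The share of hepatocytes in each liver was not tested.

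Few probe sets passed a test of the difference between the diets against the spread between rats, with 4 M and 5 L livers. In a limma fit, which sets each difference against the variance of that probe set between rats, 2 of 31042 probe sets (0.00644%) passed a Benjamini-Hochberg adjusted p of 0.05, 1 up and 1 down (0.00322% each), and 1252 (4.03%) had an unadjusted p under 0.05. The words rose and fell are kept for these 2 probe sets. Rank products, the test the study used, ranks the M over L ratio of each probe set in all 20 pairs of rats. The logarithms of these ranks are averaged, so extreme ranks in some pairs can carry a call. At a false discovery rate under 0.05 it called 44 probe sets (0.142%) for a higher level in the M-group and 81 (0.261%) for a lower one. Rank products permutes values across probe sets within an array and so does not take account of how variable a single probe set is. Data were also simulated with each probe set's own mean and spread and with no differences shared between probe sets. There rank products called many unchanged probe sets of large spread. Its nominal false discovery rate did not hold there and cannot be relied on for these data. The 125 probe sets it called had a median residual SD of 0.646 within diet groups, against 0.114 for all probe sets, and in only 15 of them (12%) did the 4 M livers lie wholly above or below the 5 L livers. Such separation occurred in 316 of all probe sets (1.02%), 153 above (0.493%) and 163 below (0.525%). For most of the called genes named below the value of every rat is therefore given. The others are given by a mean, a range or a log2 fold change, and some called genes are not named.

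**Figure D1:**
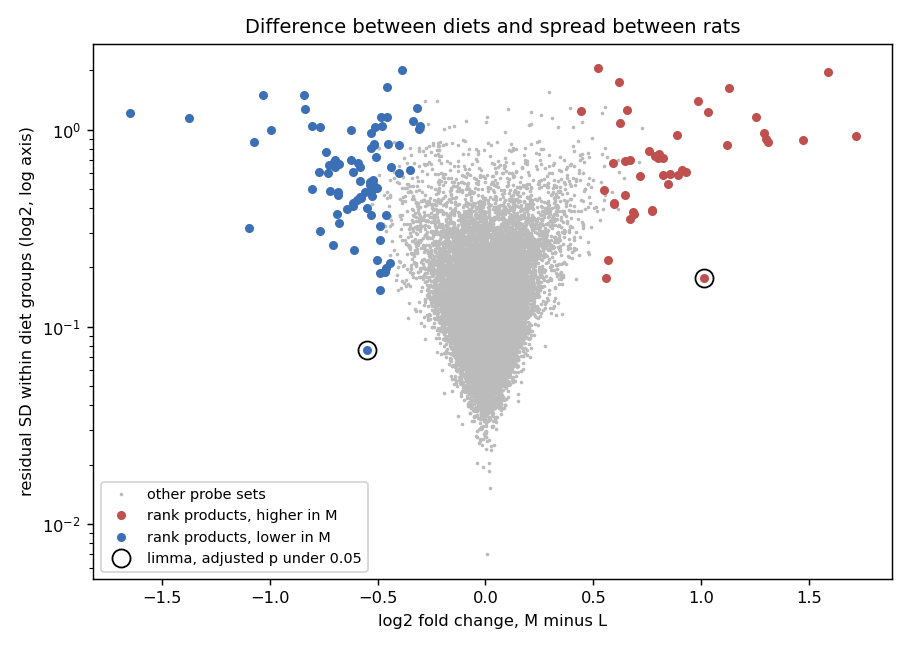
Log2 fold change of M minus L (x axis) against the residual SD within diet groups (y axis, log2 units on a log axis) for all probe sets. The 125 probe sets called by rank products (red higher, blue lower in the M-group) lie mostly at a large SD, with a median of 0.646, and the 2 that passed limma (rings) lie at a smaller one (0.178 for *Nek3* and 0.0765 for 1393192_at, against a median of 0.114 for all).

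The probe set that rose belongs to *Nek3*, a NIMA-related protein kinase. *Nek3* had values of 6.57, 6.33, 6.77 and 6.22 in the M livers (M6, M8, M9, M10), against 5.34, 5.25, 5.52, 5.52 and 5.67 in L1 to L5. All M livers were above all L livers, and *Nek3* rose by a log2 fold change of 1.01 (SE 0.11, adjusted p = 0.00462 in limma), with 6.47 ± 0.25 in the M-group (SD, n = 4) and 5.46 ± 0.17 in the L-group (SD, n = 5). The H livers averaged 5.64 ± 0.08 (SD, n = 4), within 0.2 log2 units of the L mean. With each rat left out in turn the limma adjusted p lay between 0.00603 and 0.0362. In a limma fit of the 9 M and L arrays without the H livers it was 0.0948, which does not pass, and without M9, M10 and L5 it was 0.0244, while rank products no longer called it there. *Nek3* is represented by 1 probe set here.

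The probe set that fell, 1393192_at, has no gene symbol in the annotation used. Its values were 7.55, 7.63, 7.56 and 7.55 in the M livers and 8.10, 8.17, 8.09, 8.14 and 8.09 in the L livers. Its spread was narrow in both groups, with 7.57 ± 0.04 in the M-group (SD, n = 4) and 8.12 ± 0.03 in the L-group (SD, n = 5). The log2 fold change was -0.55 (SE 0.06, limma adjusted p = 0.00462), and the H livers averaged 8.17. It stayed under an adjusted p of 0.05 with each rat left out (0.0143 to 0.0362) and in the 9-array fit (0.00675), but had an adjusted p of 0.442 without M9, M10 and L5, which leaves 2 M livers. The next smallest limma adjusted p of all probe sets was 0.48, that of *Coch*.

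Next to these 2, a small group of named genes was called by rank products with no overlap between the M and L livers, though none of them passed limma. *Coch*, which encodes the secreted protein cochlin, had 4.54, 3.69, 4.01 and 3.98 in the M livers and 5.41, 5.24, 5.02, 5.001 and 5.08 in the L livers. The highest M liver, M6, was still below the lowest L liver, and the log2 fold change was -1.09 (SE 0.19). The call held in each of the 9 fits with 1 rat left out and without M9, M10 and L5.

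*Cebpa* encodes C/EBPα, a transcription factor of hepatocytes that controls genes of gluconeogenesis, glycogen and lipid metabolism. Its probe set with the largest difference had 8.24, 8.34, 8.53 and 8.33 in the M livers and 9.22, 9.26, 9.20, 9.26 and 8.69 in the L livers. The M livers lay close together and L5 was the 1 low L liver. The log2 fold change was -0.77 (SE 0.18), called in all 9 leave-one-out fits, and -0.95 without M9, M10 and L5. All 5 probe sets annotated to *Cebpa* were lower in the M-group, with log2 fold changes of -0.77, -0.68, -0.42, -0.35 and -0.34 and unadjusted p-values between 0.000812 and 0.0366 in limma. The 2 with the largest differences were called by rank products. The H livers averaged 8.96 on the first probe set, between the M and L means of 8.36 and 9.13.

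*Cyp2d4*, a P450 enzyme, had 5.46, 5.54, 5.41 and 5.42 in the M livers and 6.69, 6.10, 6.32, 5.78 and 5.93 in the L livers. The M livers were nearly level while the L livers spread over almost 1 log2 unit, and the log2 fold change was -0.71 (SE 0.15). A second, brighter probe set of *Cyp2d4* (7.90 in the M-group, 7.99 in the L-group) differed by -0.09 only and was not called. *Slc22a23*, a member of the organic ion transporter family, had 4.54, 4.94, 4.62 and 4.81 in the M livers and 5.08, 5.15, 5.38, 5.28 and 5.20 in the L livers, and its brighter second probe set differed by -0.11. The call of *Slc22a23* was lost without L3 or without L4.

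*Pdia5*, a protein disulfide isomerase of the endoplasmic reticulum, had 9.03, 8.43, 7.74 and 8.98 in the M livers and 9.26, 9.22, 9.09, 9.13 and 9.67 in the L livers. The groups touched, since M6 and L3 differed by little, and the call was lost without M9 or without L5. *Inhbb*, the βB subunit of activin and inhibin, *Tafa2*, which encodes a secreted chemokine-like protein, and *Rtn4rl2*, a Nogo receptor family member, were separated by less, with log2 fold changes of -0.50, -0.49 and -0.49. The call of *Inhbb* was lost without M9, L1, L2 or L3, that of *Tafa2* without M9, M10, L1, L3, L4 or L5, and that of *Rtn4rl2* without M9, L1, L2 or L5. The other, dimmer probe sets of *Tafa2* differed by -0.14 and -0.06 and were not called.

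Among the 4 non-overlapping probe sets called higher, *Psat1*, the aminotransferase of serine synthesis, had 4.70, 5.14, 5.18 and 4.71 in the M livers and 4.22, 4.28, 4.04, 4.26 and 4.51 in the L livers. All M livers were above L5, the highest L liver, with a log2 fold change of 0.67 (SE 0.21) that was not called without M8 or without M9. *Lgals3bp*, a secreted glycoprotein that binds galectin-3 and is induced by interferon, had 6.63, 7.38, 6.81 and 7.43 in the M livers and 6.07, 6.53, 6.37, 6.35 and 6.12 in the L livers, with a log2 fold change of 0.77 (SE 0.23) whose call was lost without M8 or without M10. *Cldnd1*, a claudin domain protein, separated in name only: M9 and M10 had 4.98 and 4.61, while M6 and M8 had 3.15 and 3.17 beside 3.12, 2.91, 3.15, 3.09 and 3.07 in the L livers. Its second probe set, at 9.18 in the M-group and 9.08 in the L-group, differed by 0.10, and the call was lost without M9 or without M10.

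Apart from *Nek3*, 8 of these genes were not called by rank products in the livers without M9, M10 and L5. The log2 fold changes there were -0.44 for *Pdia5*, -0.45 for *Inhbb*, -0.28 for *Tafa2*, -0.43 for *Rtn4rl2* and -0.48 for *Slc22a23*. Those of the genes called higher were 0.72 for *Psat1*, 0.67 for *Lgals3bp* and 0.09 for *Cldnd1*.

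**Figure D2:**
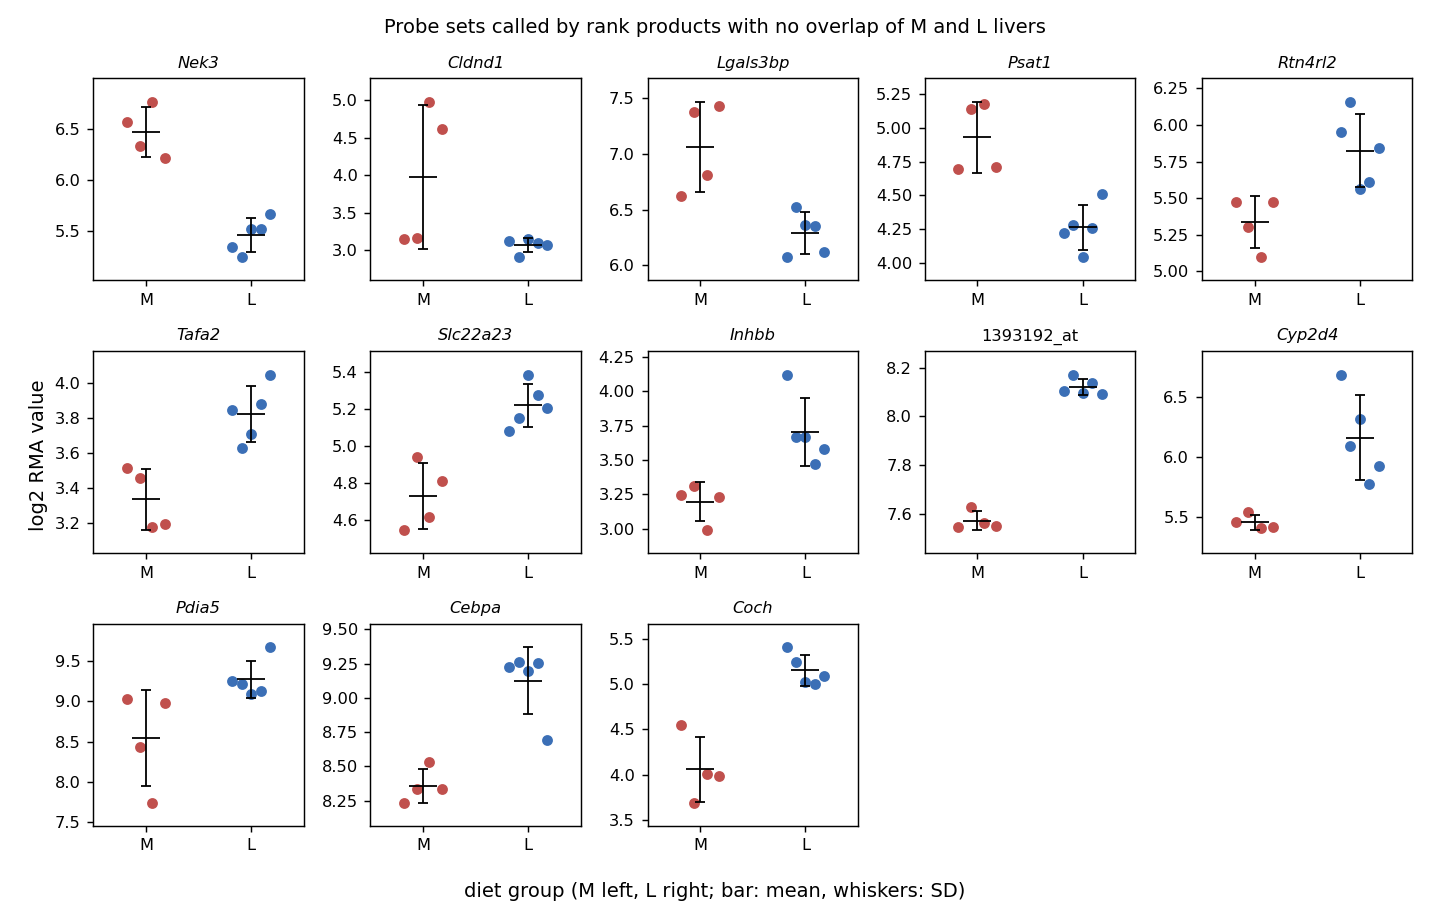
Log2 RMA values (y axis, own range in each panel) of the 13 probe sets described above in the 4 M livers (red, left) and 5 L livers (blue, right), with the mean as a bar and the SD as whiskers. The groups do not overlap in any panel. *Nek3* (mean 6.47 in the M-group and 5.46 in the L-group) and 1393192_at (7.57 and 8.12) have a gap that is wide for their spread, and for *Cldnd1* only M9 and M10 stand apart.

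The largest differences called by rank products were in genes that varied widely between rats (these genes were chosen after their values were seen). *Sybu*, which encodes syntabulin, a linker of cargo to kinesin, had 5.001, 5.56, 6.25 and 7.09 in the M livers and 5.11, 3.26, 4.84, 3.40 and 4.69 in the L livers. Only M6 lay within the L range, and the log2 fold change was 1.72 (SE 0.54). Another probe set of *Sybu*, at 2.51 in the M-group and 2.54 in the L-group, differed by -0.03. *Rgs16*, a regulator of G protein signalling that is known to follow fasting and the clock in liver, had 8.73, 5.19, 5.995 and 8.16 in the M livers and 9.21, 9.23, 9.58, 7.16 and 8.17 in the L livers. M8 and M9 were low and M6 and M10 lay within the L range, with a log2 fold change of -1.65 (SE 0.70). Both were called in all 9 leave-one-out fits, but only *Rgs16* (-1.83) kept its call without M9, M10 and L5, and *Sybu* (1.13) did not.

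Of the other genes called in all 9, *Serpina7*, the thyroxine-binding globulin, had 9.03, 7.91, 8.04 and 7.88 in the M livers and 8.91, 8.91, 8.72, 9.15 and 9.25 in the L livers. M8, M9 and M10 were below every L liver and M6 was among them, with a log2 fold change of -0.77 (SE 0.35) that was -0.45 and not called without M9, M10 and L5, and the H livers averaged 9.77. *Rprm*, a p53-induced regulator of the cell cycle, had 4.36, 6.08, 3.04 and 2.77 in the M livers and 5.99, 5.58, 3.95, 4.58 and 5.19 in the L livers. The highest and the 2 lowest livers were M livers, and its log2 fold change of -0.99 (SE 0.57) became 0.20 without M9, M10 and L5.

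In 9 genes rank products called 2 probe sets alike, 2 of these genes higher (*Lox*, *Pcp4l1*) and 7 lower (*Cebpa*, *Cyp4a8*, *Gpd2*, *Nampt*, *Pdk4*, *Pxmp4*, *Slc6a6*), as chosen after their values were seen. On the probe set of *Pcp4l1* with the larger difference the values were 5.99, 5.73, 5.95 and 5.75 in the M livers and 5.22, 5.03, 4.58, 4.79 and 5.79 in the L livers. L5 lay among the M livers and the other L livers lay below them, and the log2 fold changes of its 2 probe sets were 0.77 and 0.60. *Nampt*, the rate-setting enzyme of NAD salvage, had log2 fold changes of -0.44 and -0.35. Its brighter probe set gave 9.12, 9.55, 9.95 and 11.06 in the M livers and 9.54, 10.55, 10.46, 10.52 and 10.28 in the L livers, M10 being the highest of all. *Slc6a6*, the taurine transporter, gave 6.79, 5.17, 5.27 and 5.07 in the M livers and 7.25, 7.17, 5.51, 5.36 and 5.15 in the L livers, high in M6, L1 and L2 alone. *Pxmp4*, a peroxisomal membrane protein, gave 7.22, 9.21, 6.99 and 7.25 in the M livers and 9.39, 9.12, 7.39, 7.30 and 9.18 in the L livers, with a high level in M8, L1, L2 and L5 and a low one in the others. The second probe set of *Pxmp4* had the same 4 livers high, the lowest of them at 7.64 and the highest of the others below 7. Both probe sets of *Nampt* kept their call without M9, M10 and L5, and those of *Pcp4l1*, *Slc6a6* and *Pxmp4* did not.

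*Lox*, lysyl oxidase, which cross-links collagen, was called higher with 8.36, 7.93, 9.31 and 9.54 in the M livers and 8.31, 6.38, 9.34, 6.95 and 6.50 in the L livers. L1 and L3 were as high as the M livers while L2, L4 and L5 were low. The log2 fold change was 1.29 (SE 0.55), the second probe set of *Lox* differed by 1.30, and the H livers averaged 9.93. The difference was 0.40 and not called without M9, M10 and L5. Of 37 genes of collagens and matrix 24 were higher and 13 lower, with a median of 0.03, and *Lox* was the 1 gene called.

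The genes that the study's text names for the M-group were chosen on these arrays, so their calls are not independent evidence of a direction. Of 11 such genes 9 were analysed through a probe set of their own: all 9 were called by rank products, 8 lower and *Sds* higher, and none passed limma. The background among the 14217 genes is 0.478% called in either direction. *Gpd2*, the mitochondrial glycerol-3-phosphate dehydrogenase, had 6.26, 5.86, 5.48 and 5.73 in the M livers and 6.82, 6.46, 6.03, 5.99 and 6.93 in the L livers. Only M6 reached into the L range, and both probe sets of *Gpd2* were called, with log2 fold changes of -0.61 and -0.55, neither without M9, L1, L2 or L5. The differences were -0.26 and -0.25, not called, without M9, M10 and L5. *Cyp26b1*, which degrades retinoic acid, had 4.62, 4.62, 5.67 and 4.86 in the M livers and 5.75, 5.78, 5.56, 5.82 and 4.88 in the L livers. M9 lay with the L livers and L5 with the M livers, and the log2 fold change was -0.61 (SE 0.24). It was not called without L1, L2 or L4 but was called, at -1.11, without M9, M10 and L5. A dimmer probe set of *Cyp26b1* differed by -0.08 and was not called.

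*Akr7a3*, an aflatoxin aldehyde reductase, averaged 8.16 ± 0.56 in the M-group and 8.86 ± 0.82 in the L-group, with M8 at 8.99 above the L mean and L3 at 7.58 below every M liver, and was not called without L5. Its log2 fold change of -0.70 was -0.19 and not called when M9, M10 and L5 were left out. *Acsm2*, a medium-chain acyl-CoA synthetase, ran from 3.98 to 6.67 in the M-group and from 5.05 to 6.62 in the L-group, M6, M8 and M10 lying below every L liver and M9 above them all, and was not called without M8 or without L2. It kept its call, with a difference of -1.37, when these 3 livers were left out. *Sqor*, which oxidizes sulfide, had 9.65, 7.44, 9.18 and 7.62 in the M livers and 9.22, 9.12, 9.04, 9.94 and 7.62 in the L livers. M6 and M9 lay with the upper L livers and M8 and M10 with L5, and the call was kept only without M6, M9 or L5, and not without M9, M10 and L5 together.

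The log2 fold changes of *Acot1* and *Gstt3* turned their sign when certain single rats were left out. That of *Sds* turned only without M9, M10 and L5, where those of *Acot1* and *Gstt3* turned as well. *Acot1*, a cytosolic acyl-CoA thioesterase, had 8.10, 6.37, 4.42 and 4.29 in the M livers and 7.06, 6.07, 6.86, 5.18 and 6.10 in the L livers, so that the highest and the lowest liver were both M livers. Its log2 fold change of -0.46 (SE 0.95) became 0.001 without M9, 0.04 without M10 and 0.94 without M9, M10 and L5. *Gstt3*, a glutathione transferase, had a log2 fold change of -0.32 (SE 0.74) that was 0.07 without M9, 0.03 without M10, 0.02 without L1 and 0.48 without M9, M10 and L5. *Sds*, serine dehydratase, which feeds serine into gluconeogenesis, had 5.66, 7.42, 8.53 and 8.05 in the M livers and 7.31, 5.56, 6.77, 8.27 and 6.03 in the L livers, a log2 fold change of 0.63 (SE 0.62) that was -0.44 without M9, M10 and L5.

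Genes were then described by pathway, each gene by its brightest own probe set. Over all 14217 genes 49.9% had a log2 fold change above 0 and the median was -0.0002; rank products called 22 higher (0.155%) and 46 lower (0.324%), and 135 (0.95%) did not overlap. Because no list is tested here, counts and medians are descriptions. Limma passed 1 of these genes (0.00703%), *Nek3*, and no gene of any list below.

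The list of peroxisomal, omega oxidation and PPARα target genes was mostly lower: 18 of 23 genes were lower in the M-group and 5 higher, with a median log2 fold change of -0.22. Rank products called *Cyp4a8*, *Pdk4*, *Angptl4* and *Acot1* lower. *Cyp4a8*, an omega-hydroxylase of the PPARα-regulated P450 4A family, had 6.67, 4.82, 4.62 and 5.04 in the M livers and 6.05, 5.87, 6.91, 5.64 and 5.46 in the L livers. M8, M9 and M10 were below every L liver and M6 was among the highest livers. *Pdk4*, the kinase that shuts off pyruvate dehydrogenase in fasting, had 9.33, 8.72, 9.49 and 10.32 in the M livers and 9.63, 10.68, 10.48, 9.65 and 9.95 in the L livers, and M10 alone lay within the L range. Its call was lost without M8, L2 or L3. *Angptl4*, a secreted inhibitor of lipoprotein lipase, averaged 9.44 ± 0.44 in the M-group and 9.98 ± 0.57 in the L-group, with a log2 fold change of -0.54 (SE 0.30) that was called only without M6, M8 or L5 among the leave-one-out fits.

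The direction of this list changed when M9, M10 and L5 were left out, which leaves M6 and M8 as the only M livers. In that setting its median was 0.04 and 14 of 23 genes were higher. With any 1 rat left out the median lay between -0.40 and -0.10. *Pdk4* kept its call without the 3 livers, with a log2 fold change of -1.08, and *Cyp4a8* and *Angptl4* did not. The list of oxidative phosphorylation turned its direction as well, with 32 of 39 genes lower and a median of -0.04 in all 9 livers and 33 of 39 higher and a median of 0.05 without the 3. In mitochondrial beta-oxidation 14 of 19 genes were then higher, with a median of 0.06, and in apolipoproteins and lipoprotein assembly 10 of 16, with a median of 0.01. The median of 17 of all 49 lists, marker lists included, changed its sign in this setting, and apart from the PPARα list and the evening arm of the clock these medians lay within 0.1 of 0 in both.

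*Fgf21*, the fasting hormone that hepatocytes make under control of PPARα and of the amino acid response, lay on the other side of the median of the PPARα list. It had 8.95, 8.68, 7.90 and 8.14 in the M livers and 6.86, 8.38, 7.87, 7.43 and 7.29 in the L livers. Every M liver was above 4 of the 5 L livers and L2 lay among the M livers. The log2 fold change was 0.85 (SE 0.31), called higher by rank products but not without M6, without M8 or without M9, M10 and L5 together (1.18), and the H livers averaged 7.87. The 250 bases before the *Fgf21* start in RefSeq (build GRCr8, chr1:105221377-105221626, minus strand) are shown because they hold the amino acid response element, TGATGNAA on either strand, which binds ATF4 with C/EBP proteins. The match, read on the opposite strand, is in capitals.
Fgf21: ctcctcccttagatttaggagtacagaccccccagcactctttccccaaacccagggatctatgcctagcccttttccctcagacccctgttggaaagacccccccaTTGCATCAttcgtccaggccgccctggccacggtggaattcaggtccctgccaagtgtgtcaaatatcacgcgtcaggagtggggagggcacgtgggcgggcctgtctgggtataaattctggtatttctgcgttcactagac
This element occurs in 3.4% of 33469 promoters of the same length, and a match is a description, not a bound site.

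*Fgf21*, *Psat1* and *Atf3* were the 3 genes called in the list of ATF4 and the unfolded protein response, all higher. Of its 25 genes 16 were higher and 9 lower, with a median of 0.06. *Asns*, asparagine synthetase, was higher in all M livers without a call, with 3.48, 3.91, 3.61 and 3.49 in the M livers and 3.34, 3.48, 3.22, 3.13 and 3.35 in the L livers, M6 and L2 being level to 2 decimals. The chaperones of the same list did not share this, *Hspa5*, *Hsp90b1* and *Pdia4* having log2 fold changes of -0.02, -0.03 and -0.05. The median of the list was 0.14 and 22 of 25 genes were higher without M9, M10 and L5.

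Immediate early genes, which answer growth factors and stress within minutes, were more often higher than lower: 21 of 30 were higher and 9 lower, with a median of 0.08 (21 of 30 and 0.07 in the livers without M9, M10 and L5). Rank products called *Atf3*, *Fos*, *Ccn1* and *Egr1* higher. *Fos*, a subunit of AP-1, had 6.62, 5.89, 8.43 and 7.43 in the M livers and 5.23, 6.32, 5.51, 6.67 and 6.15 in the L livers. M9 and M10 were above all L livers and M6 and M8 lay among them. *Atf3* had 7.38, 5.16, 8.71 and 7.41 in the M livers and 5.39, 7.59, 5.16, 5.30 and 6.12 in the L livers, M9 again being the highest and M8 among the lowest.

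*Egr1*, a zinc finger transcription factor, had 10.70, 9.20, 10.38 and 10.29 in the M livers and 8.22, 8.80, 10.11, 9.90 and 9.69 in the L livers. *Ccn1*, a secreted matricellular protein, had 6.77, 6.39, 7.30 and 7.69 in the M livers and 4.91, 6.17, 6.70, 6.68 and 6.27 in the L livers. In both, M8 was the lowest M liver and L1 the lowest of all. The log2 fold changes were 1.26 (SE 0.67) for *Atf3*, 1.12 (SE 0.48) for *Fos*, 0.89 (SE 0.34) for *Ccn1* and 0.80 (SE 0.41) for *Egr1*. Each of the 4 calls was lost without M9. That of *Fos* was also lost without M10, that of *Ccn1* without M10 or L1, and that of *Egr1* without M6, M10 or L1. Without M9, M10 and L5 the differences of *Atf3*, *Fos*, *Ccn1* and *Egr1* were 0.41, 0.32, 0.47 and 0.70, none called. The second probe set of *Fos*, at 2.72 in the M-group and 2.81 in the L-group, differed by -0.09. The H livers averaged 7.65 for *Fos* and 6.89 for *Ccn1*.

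The 250 bases before the starts of *Egr1* (RefSeq, build GRCr8, chr18:26736828-26737077, plus strand) and *Ccn1* (chr2:237225690-237225939, minus strand) are shown as promoters of 2 genes called together. Capitals mark the core of the cAMP response element (CRE), TGACG on either strand, and the CArG box, the binding motif of serum response factor.
Egr1: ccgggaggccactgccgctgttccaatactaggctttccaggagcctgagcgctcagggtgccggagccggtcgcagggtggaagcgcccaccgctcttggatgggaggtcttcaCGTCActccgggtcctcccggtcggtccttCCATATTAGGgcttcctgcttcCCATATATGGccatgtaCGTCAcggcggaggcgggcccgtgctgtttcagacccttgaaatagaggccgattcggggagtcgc
Ccn1: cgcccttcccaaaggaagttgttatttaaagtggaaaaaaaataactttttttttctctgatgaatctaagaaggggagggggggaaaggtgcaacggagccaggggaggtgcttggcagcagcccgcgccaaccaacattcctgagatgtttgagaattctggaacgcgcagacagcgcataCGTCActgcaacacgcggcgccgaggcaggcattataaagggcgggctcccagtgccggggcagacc
*Egr1* held 2 CRE cores and 2 CArG boxes, which did not overlap, and *Ccn1* held 1 core and no CArG box in this window. The core occurs in 18.2% and the CArG box in 1.5% of 33469 promoters of this length. These matches are letters in a sequence, and no binding was measured.

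Heat shock chaperones were lower in the M-group in 15 of 18 genes, with a median of -0.13. *Hspa1a*, the inducible HSP70, was the 1 gene called, with 6.31, 6.07, 4.91 and 5.79 in the M livers and 7.14, 8.38, 6.96, 5.87 and 5.86 in the L livers. L1, L2 and L3 were above every M liver, and L4 and L5 lay among the M livers. Its log2 fold change was -1.07 (SE 0.50), called in all 9 leave-one-out fits and without M9, M10 and L5. *Hspb1* averaged 5.59 ± 0.20 in the M-group and 5.98 ± 0.38 in the L-group, *Dnajb1* 8.44 ± 0.39 and 8.78 ± 0.47, and neither was called. In the livers other than M9, M10 and L5, 12 of the 18 genes were lower, with a median of -0.10.

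Clock genes were split by arm. All 11 genes of the arm that peaks in the evening, among them *Per2*, *Dbp* and *Nr1d1*, were higher in the M-group, with a median of 0.24 and log2 fold changes between 0.08 and 0.45. Of 6 genes of the opposite arm 5 were lower, among them *Bmal1*, *Npas2* and *Clock*, with a median of -0.24. None was called, and the rats did not follow the diet. *Bmal1*, the positive limb of the clock, had 5.87, 4.93, 3.78 and 3.88 in the M livers and 5.92, 5.79, 4.26, 4.31 and 4.34 in the L livers. *Per2*, its repressor, had 7.43, 8.32, 9.12 and 8.94 in the M livers and 7.49, 7.56, 8.39, 8.32 and 8.62 in the L livers. A dimmer probe set of *Per2* differed by -0.03, against 0.38 on this one. M6, L1 and L2 had high *Bmal1* and low *Per2*, and M9 and M10 the reverse. Without M9, M10 and L5 the evening arm had a median of -0.11 with 3 of 11 genes higher. The opposite arm then had a median of -0.10 with 3 of 6 genes higher, so the split by arm was not kept there. The study's text names 1 time point of tissue sampling, and the part of the time of dissection of each rat in these values was not tested.

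**Figure D3:**
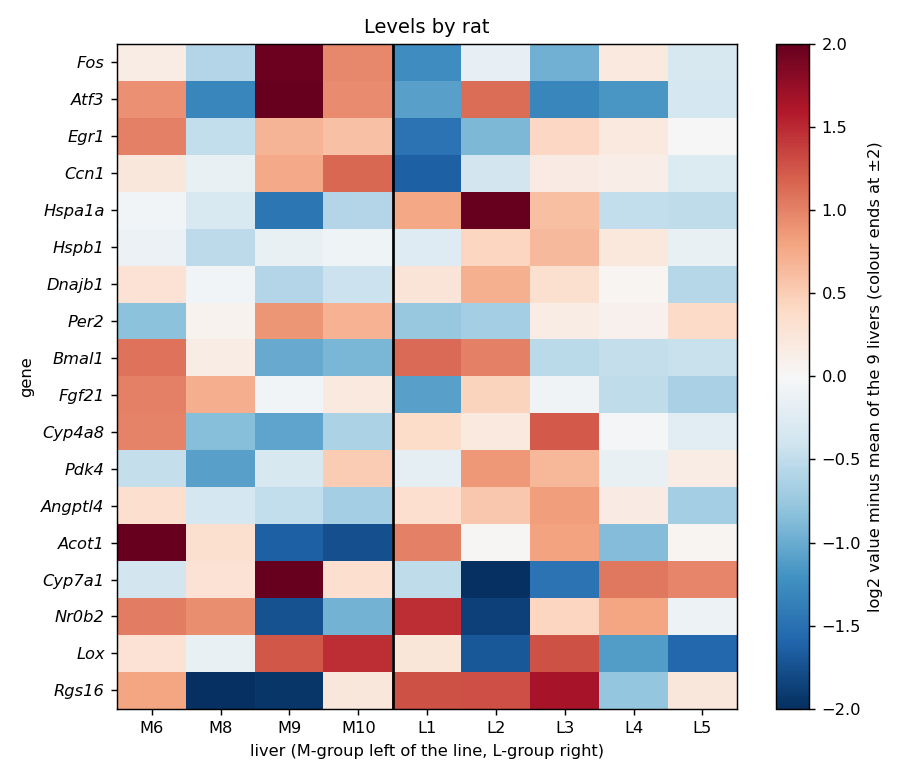
Log2 value minus the mean of the 9 livers (colour, ending at ±2) for 18 genes (rows) in the 4 M livers (left of the line) and 5 L livers (right). Red and blue run along rats as well as along groups: M9 is high for *Fos* (8.43) and *Cyp7a1* (8.75) and low for *Bmal1* (3.78), and M6, L1 and L2 share a high *Bmal1*.

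Bile acid synthesis had 1 call among 13 genes, 4 higher and 9 lower with a median of -0.03. *Cyp7a1*, cholesterol 7α-hydroxylase, which sets the pace of this pathway, had 6.36, 7.02, 8.75 and 7.06 in the M livers and 6.22, 4.40, 5.24, 7.77 and 7.69 in the L livers. L2 and L3 were low and M9 was the highest of the 9, and the log2 fold change was 1.03 (SE 0.71), not called without M9, without L2 or without M9, M10 and L5 together (0.78). The H livers averaged 8.98. *Nr0b2* (SHP), the nuclear receptor that represses *Cyp7a1*, had 9.54, 9.45, 6.79 and 7.58 in the M livers and 10.004, 6.66, 8.96, 9.32 and 8.43 in the L livers. It was called lower with a log2 fold change of -0.33 (SE 0.64), which was 0.18 without M9 and 0.76 without M9, M10 and L5. *Slc27a5*, the bile acyl-CoA synthetase, was lower in every M liver without a call, with 12.0002, 11.91, 11.85 and 12.11 in the M livers and 12.23, 12.16, 12.24, 12.25 and 12.19 in the L livers.

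Synthesis of fatty acids and sterols showed no call. Of 16 genes of fatty acid synthesis 6 were higher and 10 lower, with a median of -0.02 and a range from -0.36 for *Me1* to 0.39 for *Mid1ip1*. *Fasn*, fatty acid synthase, differed by -0.01 and *Acaca* by -0.06. *Mlxipl*, the gene of ChREBP, did not overlap between groups, with 7.39, 7.35, 7.39 and 7.20 in the M livers and 7.48, 7.51, 7.44, 7.48 and 7.49 in the L livers, a difference of -0.15 (SE 0.06). Of 17 genes of cholesterol synthesis 14 were lower, by at most 0.22, with a median of -0.06. Of 13 genes of desaturation and elongation 6 were higher, with a median of -0.03, and of 19 genes of mitochondrial beta-oxidation 6 were higher, with a median of -0.04.

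Glucose and amino acid pathways were level apart from single genes. Gluconeogenesis had 6 of 15 genes higher and a median of -0.03, and *Pck1* differed by 0.03. *Phkg2*, a catalytic subunit of phosphorylase kinase, was the 1 gene called among 14 of glycogen metabolism, with 6.67, 5.68, 5.79 and 6.58 in the M livers and 6.77, 6.78, 6.67, 6.62 and 6.71 in the L livers. M8 and M9 were about 1 log2 unit low and M6 and M10 were not, and the call was kept only without M6 or without M10, and not with M9, M10 and L5 all left out. In amino acid breakdown 17 of 39 genes were higher, with a median of -0.01. *Aass*, of lysine breakdown, had 10.34, 9.97, 10.38 and 9.75 in the M livers and 11.26, 11.28, 9.65, 11.35 and 10.51 in the L livers and was called lower, also without the 3 livers but not without L4. *Gpt*, alanine aminotransferase, had a log2 fold change of -0.53 (SE 0.29) whose call was kept only without M6, M8 or L5, and which was -0.17 without the 3 livers. *Sds*, described above, was the 1 gene of this list called higher. Apart from *Sult1c2*, a sulfotransferase (8.76 ± 0.45 in the M-group and 8.16 ± 0.38 in the L-group, called higher but not without M6, M8, M9, L2 or L3, nor without M9, M10 and L5 together), and *Gstt3*, no gene of 34 phase II enzymes was called. None of 30 genes of P450 families 1 to 3 was called on its brightest probe set, 12 being higher and 18 lower.

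The remaining lists stayed near the median of all genes, and none of the following held a call. Cell cycle genes were higher in 27 of 35, with a median of 0.04 and no log2 fold change above 0.29. Glucocorticoid receptor targets were higher in 16 of 21, with a median of 0.05. The growth hormone, STAT5 and IGF axis had 13 of 30 genes higher and a median of -0.01, insulin signalling 8 of 21 and -0.04, acute phase proteins 12 of 28 and -0.01, and genes of the urea cycle 7 of 11 and 0.05. Apolipoproteins and lipoprotein assembly had 4 of 16 genes higher and a median of -0.04, and lipases and lipid droplet proteins 6 of 18 and -0.02.

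Of the markers of other cells of the liver, those of macrophages, T and NK cells, neutrophils and cholangiocytes were mostly higher. Those of stellate cells, endothelium and red cell precursors were not. Stellate cell and fibroblast genes were higher in 3 and lower in 7 (median -0.02), endothelial genes higher in 3 and lower in 4 (-0.02), and all 5 red cell precursor genes were lower (-0.09). All 6 neutrophil genes and all 5 cholangiocyte genes were higher, with medians of 0.10 and 0.09. The neutrophil genes had mean levels from 3.82 to 4.001 in the M-group and from 3.72 to 3.93 in the L-group. Those of the cholangiocyte genes ran from 4.01 to 4.17 and from 3.94 to 4.07. Both lists, and that of T and NK cells, lay below the array medians of 4.67 to 4.70. Whether such small differences at low signal reflect these cells was not tested. Of 10 Kupffer cell and macrophage genes 8 were higher, with mean levels from 8.13 to 8.69 in the M-group and from 8.15 to 8.33 in the L-group. *Adgre1*, an adhesion receptor of macrophages, differed by 0.42 (SE 0.18), with M9 at 7.82 the highest. Of 12 T and NK cell genes 10 were higher, with mean levels from 4.25 to 4.48 in the M-group and from 4.18 to 4.29 in the L-group. *Prf1*, perforin, had 5.86, 5.63, 6.09 and 5.63 in the M livers and 5.48, 5.42, 5.56, 5.48 and 5.48 in the L livers, and *Gzma*, granzyme A, 6.07, 6.07, 6.71 and 6.07 in the M livers and 5.59, 5.94, 5.95, 5.93 and 5.67 in the L livers. Both were separated without a call and M9 was the highest in both. In bulk tissue, more cells of a type and more RNA per cell cannot be told apart. *Cd3e* and *Cd3d*, which mark T cells, differed by -0.05 and 0.00. Interferon response genes were higher in 28 of 36, with a median of 0.07 and only *Lgals3bp* called. The part of immune cells in that list was not tested.

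**Figure D4:**
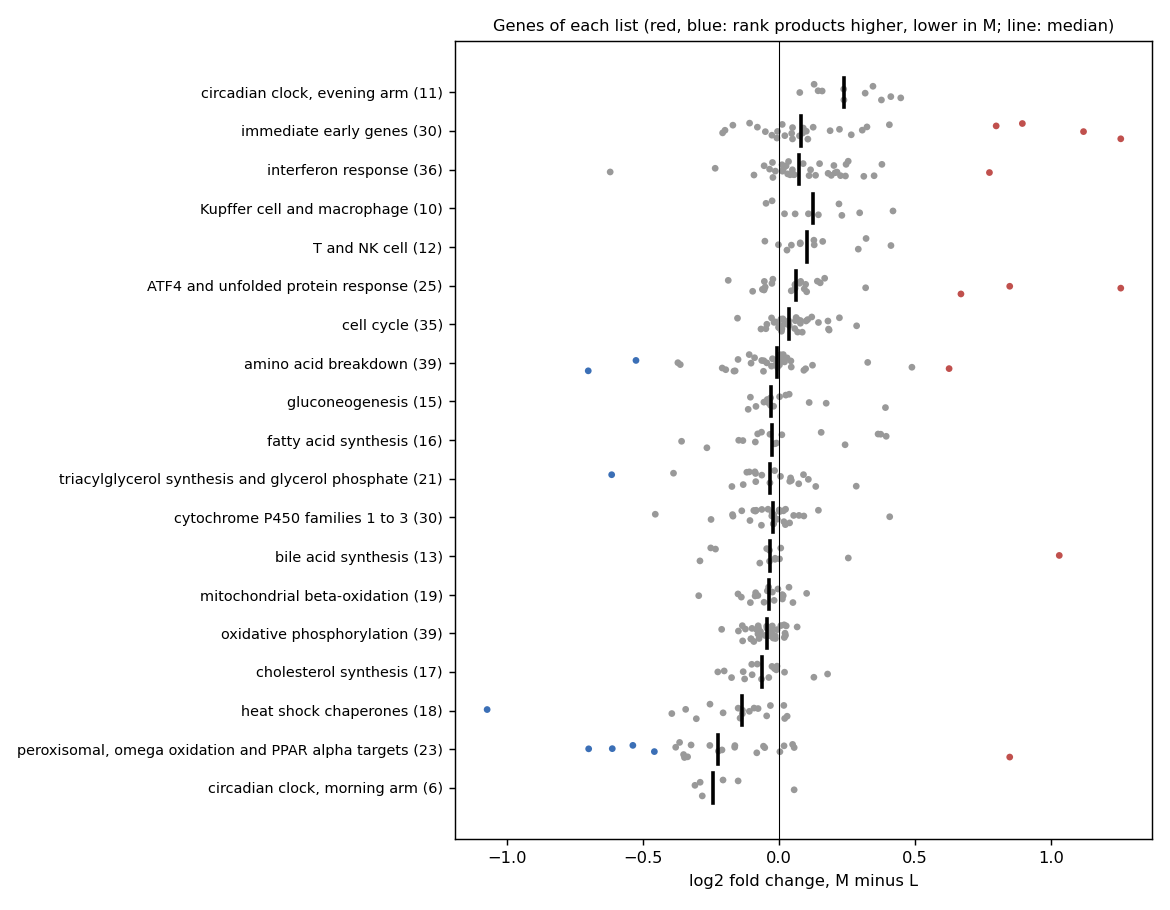
Log2 fold change of M minus L (x axis) of each gene (points; red called higher and blue called lower by rank products) in 19 gene lists, with the number of genes in brackets and the median as a line. The medians of the evening and morning arms of the clock (0.24 and -0.24) and of the PPARα list (-0.22) lie farthest from 0, and most others lie within 0.1 of it.

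Some calls came from probe sets that had 2 levels across the 13 livers irrespective of diet. Of 11 probe sets (0.0354%) whose values split at a gap of at least 1.5 log2 units with 3 or more arrays on each side, 8 were called by rank products. *Mx2*, an interferon-induced GTPase, had 6.31, 2.87, 6.57 and 2.97 in the M livers and 5.56, 3.07, 2.86, 6.06 and 2.75 in the L livers on the probe set called higher. M6, M9, L1 and L4 were high and the others near the bottom of the scale, and the same 4 rats were high on the unnamed probe set 1393108_at, with 8.22 and 8.01 against 4.15 and 4.41 among the M livers and 7.92 and 7.39 against 4.07 to 4.75 among the L livers. The other probe set of *Mx2* differed by 0.06 between the groups.

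The number of calls changed with the rats. With 1 rat left out rank products called between 11 probe sets higher (without M9) and 51 (without L5), and between 40 lower (without L1) and 158 (without M6). Of the 125 calls 19 were made in all 9 leave-one-out fits, 4 higher and 15 lower. Without M9, M10 and L5 there were 1 higher and 65 lower calls, of which 1 and 25 were among the calls from all 9 livers. *Coch*, *Cebpa*, *Cyp2d4*, *Hspa1a*, *Rgs16* and 1393192_at were called in all of these settings. The settings share most of their rats, so these calls are not independent of each other. Only 1393192_at among them passed limma, and the M and L livers overlapped for *Hspa1a* and *Rgs16*.

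**Figure D5:**
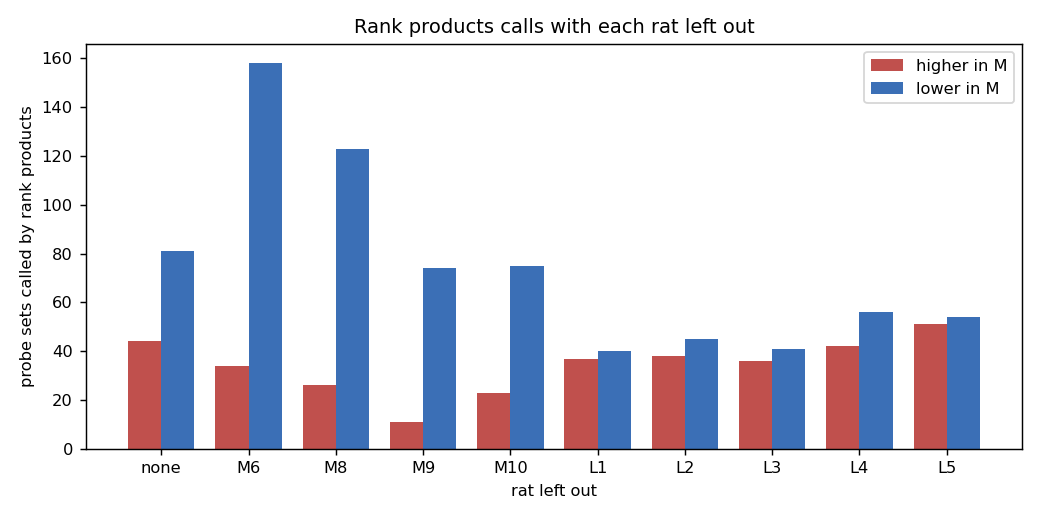
Number of probe sets called by rank products (y axis) higher (red) or lower (blue) in the M-group in all 9 livers (none) and with each rat left out (x axis). The higher calls dropped to 11 without M9, and the lower calls numbered 158 without M6 and 40 without L1.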

How the data were processed

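Liver pieces were kept in RNAlater, and their total RNA was labelled and read on 1-colour Affymetrix rat arrays. The authors deposited log2 values that they had made from the liver scans by RMA, which subtracts background, quantile-normalizes the arrays and summarizes probes. Their methods give R 2.7.1 and Bioconductor 2.2. Adipose arrays, made by other methods, were not used. Of the probe sets, 57 array controls were left out, which leaves 31042: 20826 with 1 symbol (14217 genes), 436 with several and 9780 with none in GEO's platform annotation, which can be old. Of the symbols, 20758 were matched to RefSeq (GRCr8) through the gene ID. The deposited values hold no detection calls, so low signals are not marked as background. The number of arrays and the spread between rats limit the precision.

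Rank products (Python 3.11.15) used the 20 M over L ratios, 100 permutations within arrays and a false discovery rate of 0.05. Limma 3.58.1 (R 4.3.3) was fitted to all 13 liver arrays, with Benjamini-Hochberg adjustment over all probe sets at 0.05. Both were run on data simulated with each probe set's own mean and spread, noise drawn for each value alone, and known changes. Neither called a known change in the wrong direction, and limma called most of the larger changes. Rank products also called many unchanged probe sets of large spread. Its nominal false discovery rate did not hold there and cannot be relied on here. Genes named are those past limma, those called by rank products without overlap, the study's own, and the called or lowest-p genes of each list. A gene of a list is shown by its brightest own probe set. Members and lists were chosen with earlier results of these data known. Alternatives were another test or threshold, a filter on low means, array centring, quantile normalization repeated on the 9 arrays, weighting of arrays, eBayes with a trend and robust variances, the 9 arrays fitted alone, each rat left out and, after the data were seen, M9, M10 and L5 left out or probe sets with 2 levels left out.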

Additional observations from a re-analysis of the deposited data

Results flagged for a closer look

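Of 106 groups of values (the M-group and the L-group of each probe set named in the text with its own tests), 6 (5.66%) held a liver whose gap to the nearest other liver was large for the range of its group by Dixon's criterion, and chance alone marks about 1 in 20. Among M livers, M8 was high for *Akr7a3* (8.99, the others 7.81 to 7.99) and low for *Hspb1* (5.29, the others 5.66 to 5.73). M6 was high for *Serpina7* (9.03, the others 7.88 to 8.04). M9 was high for *Gzma* (6.71, the others tied at 6.07). With that tie the criterion marks a gap of any size. Among L livers, L5 was low for *Cebpa* (8.69, the others 9.20 to 9.26) and for *Cyp26b1* (4.88, the others 5.56 to 5.82).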

How the results depend on the processing

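The probe sets called higher by rank products numbered 44 in all livers, 1 with limma, 23 at a false discovery rate under 0.01, 23 after dropping the dimmer part of the probe sets (mean under the median), and 11 to 51 with 1 rat left out. Those called lower numbered 81, then 1, 30 and 47 under the same settings and 40 to 158 with 1 rat left out. Limma called 2 probe sets, against 125 by rank products, 1 in the fit of 9 arrays, 189 at an unadjusted p under 0.01 and 2 to 3 with 1 rat left out. Probe sets without overlap numbered 316, against 155 without the dimmer ones and 559 to 920 with 1 rat left out, where fewer rats have to separate. Without M9, M10 and L5 these counts were 1, 65, 1 and 3157. Centring, repeated quantile normalization, array weights, a trended fit and leaving out probe sets with 2 levels kept every count they apply to within 1.5 times.

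The log2 fold change turned its sign in genes that limma called in neither setting. Over the fits without 1 rat it ran from -1.23 to 0.043 for *Acot1* (0.001 without M9, 0.043 without M10), from -0.96 to 0.067 for *Gstt3* (0.067 without M9, 0.032 without M10, 0.018 without L1), from -0.84 to 0.18 for *Nr0b2* (0.18 without M9), from -0.012 (without M9) to 1.22 for *Mx2* and from -0.15 to 1.20 for 1393108_at (-0.15 without M6, -0.086 without M9). Without M9, M10 and L5 it turned for *Acot1* (0.94), *Gstt3* (0.48), *Nr0b2* (0.76), *Sds* (-0.44), *Bmal1* (0.33), *Per2* (-0.066) and *Rprm* (0.20). The cause was not tested. No paired analysis was possible because the M and L rats share no numbers.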
